A study of Homo sapiens with 12 samples.

Results

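The 10 genes described here encode proteins that store, or release, glucose as glycogen and fatty acids as droplet lipid: HILPDA, PLIN2, PNPLA2, PPP1R3C, GYS1, GBE1, UGP2, PYGL, PYGB and PGM1. They were chosen by name, and each of the 10 symbols had 1 row among the 26475 gene symbols counted. They were put together with results of these libraries known, and which comparisons led to the choice is not stated. The choice was taken to rest on the responses to BAY-850, so their responses and the difference of the responses between the lines are given below as a description, with no p-value for a single gene. RNA was sequenced from 2 established ovarian cancer lines, PA-1 and SK-OV-3, in 4 groups of 3 biological replicates. PA-1 comes from an ovarian teratocarcinoma and SK-OV-3 from an ovarian adenocarcinoma. In each line, 1 group received DMSO, the vehicle, and the other received 5 µM BAY-850 for 48 h. BAY-850 is a small molecule that keeps ATAD2, a bromodomain protein, from binding acetylated histones. The sample descriptions name no engineered allele in either line. PA-1 was grown in DMEM and SK-OV-3 in RPMI, and each line is a single line grown in its own medium, so line and medium cannot be told apart.

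Cells keep glucose as glycogen, a branched polymer. PGM1 interconverts glucose 6-phosphate and glucose 1-phosphate, UGP2 makes UDP-glucose from the latter, GYS1 (the muscle-type glycogen synthase found in most tissues) adds it to the chain, and GBE1 places the branches. PPP1R3C brings protein phosphatase 1 to the glycogen particle, where dephosphorylation activates the synthase, and PYGL and PYGB, the liver and brain types of glycogen phosphorylase, release glucose 1-phosphate again. Fatty acids are kept as triglyceride in lipid droplets. PLIN2 coats the droplet, PNPLA2 (adipose triglyceride lipase) starts the hydrolysis of its triglyceride, and HILPDA is a small droplet protein that inhibits PNPLA2. Several of these genes, HILPDA, PPP1R3C and GYS1 among them, are known as hypoxia-inducible.

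The totals of estimated counts were between 34544505 and 51840233 per library, and the 10 genes together held 26601 to 48273 counts of a library. One library stood apart: SK-OV-3 BAY-850 replicate 3 had the highest total and counts in 15629 gene symbols, where the other 11 libraries had counts in 17425 to 18414. It is kept below, and results that change without it are given both ways. Levels are in CPM, a gene's share of the library's counts scaled by edgeR's TMM factors. A gene is called where edgeR's quasi-likelihood test gave an adjusted p under 0.05 over all genes tested. Of 7 markers of pluripotent cells fixed for PA-1, 6 reached a level of 1 CPM in PA-1 (L1TD1 did not) and 1 did in SK-OV-3. Of 6 epithelial markers for SK-OV-3, all 6 were found in SK-OV-3 and 3 in PA-1, where KRT7, EPCAM and PAX8 stayed below 1 CPM. KRT18, ERBB2 and KRT19 had means of 335, 61.3 and 15.7 CPM in PA-1 under DMSO. In SK-OV-3 under DMSO they had 266, 2420 and 526 CPM, so KRT18 was higher in PA-1. All 6 adipocyte markers were below 1 CPM in each group, with ADIPOQ at 0, and so were 5 blood markers. Of 4 fibroblast markers 1 reached 1 CPM in each line. In PA-1 it was PDGFRA, at 7.77 ± 1.12 CPM under DMSO and 7.24 ± 0.923 under BAY-850 (SD, n = 3), and in SK-OV-3 it was LUM, at 6.05 ± 0.796 CPM under DMSO and 1.26 ± 0.317 under BAY-850 (SD, n = 3), and their part in the results was not tested.

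The promoters of these genes are shown because PPP1R3C, PLIN2, GBE1 and GYS1 were among the 5 genes with the largest responses in PA-1, while UGP2 and PNPLA2 were the 2 that were not called there. Each sequence is the 250 bases before the start site in RefSeq (GRCh38.p14), 5′ to 3′ on the strand of the gene. Capitals mark ACGTG or GCGTG on either strand, the core of the hypoxia response element, with CACGTG counted as 1 site. The stretches lie at chr10:91633072-91633321 (minus strand) for PPP1R3C, chr9:19127493-19127742 (minus strand) for PLIN2, chr3:81761646-81761895 (minus strand) for GBE1, chr19:48993310-48993559 (minus strand) for GYS1, chr2:63840719-63840968 (plus strand) for UGP2 and chr11:818664-818913 (plus strand) for PNPLA2.
PPP1R3C: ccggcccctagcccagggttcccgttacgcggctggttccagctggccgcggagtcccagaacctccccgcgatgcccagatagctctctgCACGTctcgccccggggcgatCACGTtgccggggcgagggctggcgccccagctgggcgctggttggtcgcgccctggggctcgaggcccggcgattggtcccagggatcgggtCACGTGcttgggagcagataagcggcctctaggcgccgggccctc
PLIN2: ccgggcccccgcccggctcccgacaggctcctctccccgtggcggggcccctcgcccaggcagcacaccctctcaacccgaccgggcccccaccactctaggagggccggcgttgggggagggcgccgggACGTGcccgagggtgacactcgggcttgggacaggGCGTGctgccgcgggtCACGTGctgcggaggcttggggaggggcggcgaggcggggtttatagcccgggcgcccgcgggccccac
GBE1: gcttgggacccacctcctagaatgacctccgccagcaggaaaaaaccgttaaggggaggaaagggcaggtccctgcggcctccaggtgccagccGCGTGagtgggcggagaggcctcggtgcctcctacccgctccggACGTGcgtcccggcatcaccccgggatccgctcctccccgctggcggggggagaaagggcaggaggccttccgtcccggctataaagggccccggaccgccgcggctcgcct
GYS1: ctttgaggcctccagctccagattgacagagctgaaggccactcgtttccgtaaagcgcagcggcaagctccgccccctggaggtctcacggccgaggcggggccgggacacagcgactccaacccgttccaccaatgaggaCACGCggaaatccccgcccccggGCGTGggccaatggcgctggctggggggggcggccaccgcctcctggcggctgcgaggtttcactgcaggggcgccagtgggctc
UGP2: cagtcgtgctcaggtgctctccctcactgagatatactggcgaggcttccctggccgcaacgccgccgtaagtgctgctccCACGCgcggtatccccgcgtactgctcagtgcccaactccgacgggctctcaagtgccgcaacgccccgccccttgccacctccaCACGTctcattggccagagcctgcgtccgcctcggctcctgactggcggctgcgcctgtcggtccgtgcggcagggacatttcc
PNPLA2: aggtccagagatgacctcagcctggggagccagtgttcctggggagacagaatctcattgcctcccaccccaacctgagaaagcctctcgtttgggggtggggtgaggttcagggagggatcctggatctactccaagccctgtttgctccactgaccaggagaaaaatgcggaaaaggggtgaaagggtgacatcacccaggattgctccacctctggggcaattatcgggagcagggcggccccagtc

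The letters searched occurred 3 times in the PPP1R3C stretch, at 159, 138 and 45 bases before the start, and 3 times in that of PLIN2, at 120, 85 and 69 bases. In each of these the site nearest to the start was CACGTG. GBE1 (156 and 112 bases), GYS1 (108 and 85), UGP2 (169 and 84) and PYGB (176 and 164) had 2 sites, and PNPLA2, PYGL and PGM1 had no match in this window. Thus 6 of the 9 genes with an entry held at least 1 site, and all 6 held at least 2. HILPDA had no entry. Over the 35116 promoters in the table, 43.2% held at least 1 site, 16.2% at least 2 and 5.56% at least 3, and 6.34% held CACGTG. These shares count every start listed, several for some genes, while each of the genes above gave 1 start. The genes and motifs were chosen with earlier results known, so nothing is read from their sites against these shares. A match describes the letters only. PPP1R3C, PLIN2, GBE1, GYS1 and PYGB, which held sites, were called in PA-1, and UGP2, with 2 sites, was not. PYGL and PGM1, with none, were called there, and PNPLA2, with none, was not. The PA-1 calls of PYGL, PYGB and PGM1 were lost in 11, 7 and 4 of 17 alternatives. Whether a site bears on a response was not tested.

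Among the droplet genes, HILPDA gave the largest response of all 10 genes, and it did so in PA-1. HILPDA lies at chr7:128455849-128458418 on the plus strand (GRCh38, GENCODE), with 2 merged exons. In PA-1 its level was 34.4, 36.2 and 36.8 CPM in the DMSO libraries and 188, 198 and 191 CPM in the BAY-850 libraries. All 3 treated libraries were far above the controls, and the log2 fold change was 2.43 ± 0.0598 (SE), or 5.38-fold. In bulk RNA, more RNA per cell and more cells that hold it cannot be told apart. In SK-OV-3 the level was 8.58, 7.06 and 8.45 CPM under DMSO and 9.47, 9.71 and 6.98 CPM under BAY-850. There the groups overlapped, with the lowest value of all in the treated library that stood apart, and the log2 fold change was 0.13 ± 0.161 (SE). Without that library it was 0.26 ± 0.133. The SK-OV-3 response was lower than the PA-1 response by 2.32 ± 0.145 (SE) on the log2 scale.

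PLIN2, the droplet coat protein (chr9:19108375-19149290, minus strand), was higher under BAY-850 in both lines. In PA-1 its 48.2, 44.1 and 40.7 CPM under DMSO stood against 66.9, 62.5 and 65.8 CPM under BAY-850, a log2 fold change of 0.56 ± 0.0697. In SK-OV-3 it was 17.6, 17.3 and 16.9 CPM under DMSO and 36.1, 35 and 30.4 CPM under BAY-850, a log2 fold change of 0.98 ± 0.0872. The groups did not overlap in either line. PLIN2 was the only one of the 10 genes whose response was called larger in SK-OV-3 than in PA-1, by 0.41 ± 0.112 (SE) on the log2 scale. Even so, the treated SK-OV-3 libraries stayed below the lowest PA-1 library under DMSO. The call for the difference was lost without PA-1 DMSO replicate 1, where the difference was 0.35, and without PA-1 BAY-850 replicate 2, where it was 0.39. PNPLA2, the lipase that HILPDA inhibits (chr11:818902-825573, plus strand), moved less. It had 61.3, 65.3 and 71.2 CPM in PA-1 under DMSO and 67.2, 76.4 and 80.3 under BAY-850, with overlapping groups and a log2 fold change of 0.18 ± 0.0762. In SK-OV-3 it had 81.9, 68.1 and 72.4 CPM under DMSO and 97.9, 100 and 75.3 under BAY-850. The lowest treated value again belonged to the library that stood apart: the log2 fold change was 0.31 ± 0.1 with it, not called, and 0.42 ± 0.0748 without it, called.

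**Figure D1:**
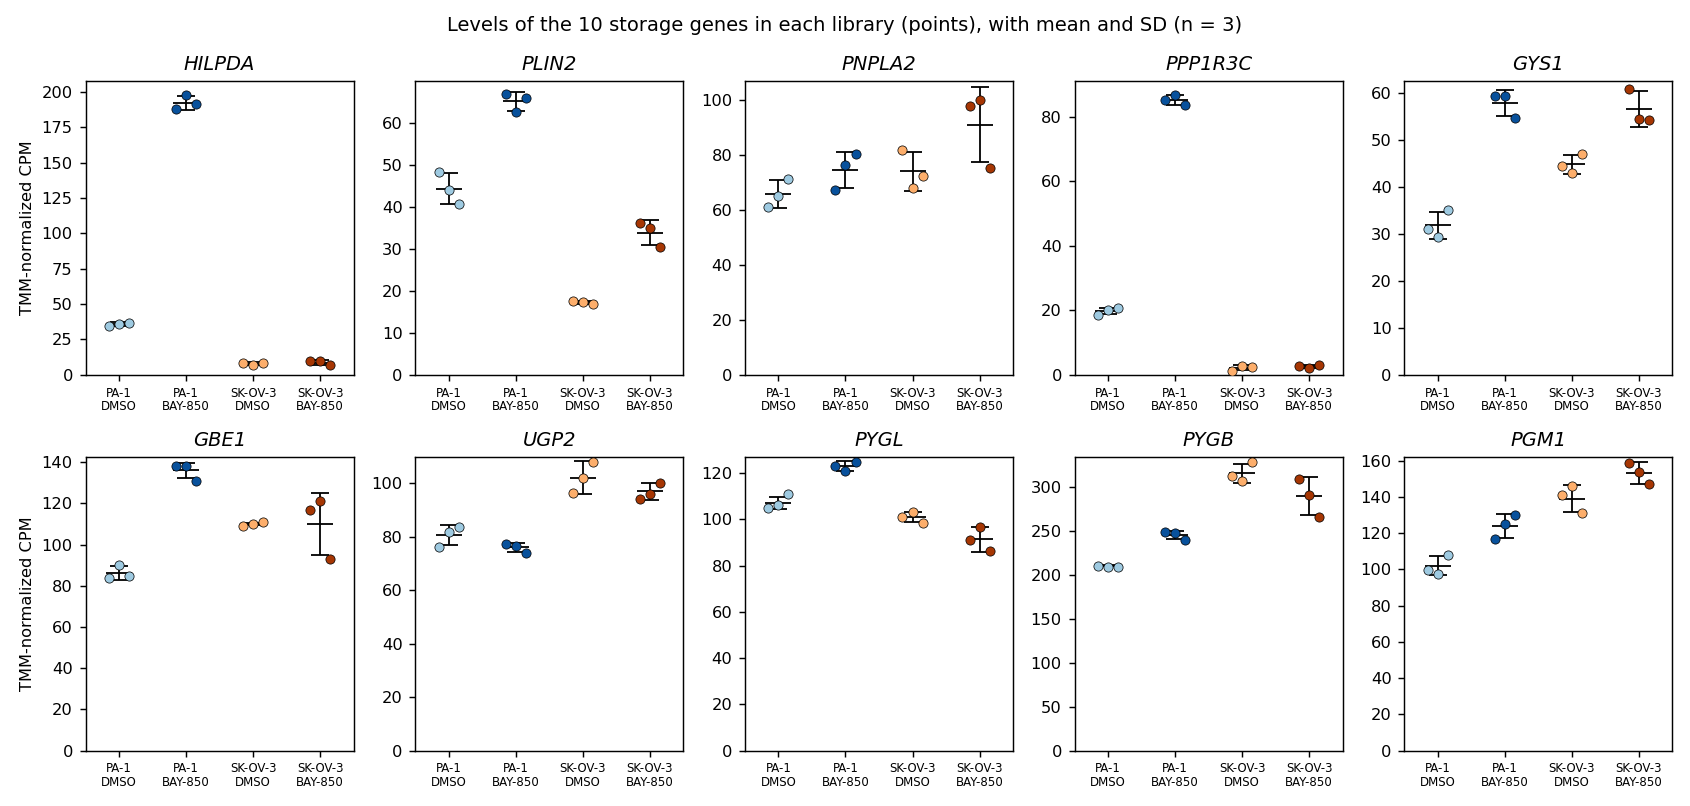
TMM-normalized CPM of the 10 storage genes (y axes, each from 0) in PA-1 and SK-OV-3 under DMSO and BAY-850 (x axes). Points are libraries, with the mean as a horizontal line and the SD as a bar (n = 3). HILPDA and PPP1R3C stand apart in the treated PA-1 libraries, at means of 192 and 85.2 CPM against 35.8 and 19.8 under DMSO, and PLIN2 is higher under BAY-850 in both lines.

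Of the genes on the side of glycogen synthesis, PPP1R3C gave the largest response. PPP1R3C, which targets the phosphatase to glycogen (chr10:91628442-91633054, minus strand), was at 18.7, 20.1 and 20.7 CPM in PA-1 under DMSO and at 85.1, 86.8 and 83.8 CPM under BAY-850. The log2 fold change was 2.1 ± 0.0657, or 4.30-fold, and the 6 libraries formed separate groups. In SK-OV-3 the gene was near the lower end of what these libraries hold, with 50, 101 and 99 counts under DMSO and 113, 95 and 170 under BAY-850, or 1.26, 2.67 and 2.57 against 2.78, 2.25 and 3.16 CPM. These groups overlapped, and the log2 fold change of 0.35 ± 0.338 had a standard error about as large as itself. The response was lower in SK-OV-3 by 1.75 ± 0.248 on the log2 scale. That standard error comes from the fit of all 12 libraries, which uses 1 spread per gene for both lines. It is below the 0.338 of SK-OV-3 fitted alone, so it may understate the uncertainty of this difference.

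GYS1, the synthase (chr19:48968125-48993310, minus strand), was higher under BAY-850 in both lines, without overlap. It had 31.1, 29.4 and 35.1 CPM in PA-1 under DMSO and 59.5, 59.4 and 54.7 under BAY-850, a log2 fold change of 0.86 ± 0.0745. In SK-OV-3 the values were 44.5, 43.1 and 47.1 CPM under DMSO and 61, 54.6 and 54.2 under BAY-850, a log2 fold change of 0.35 ± 0.0708. SK-OV-3 was higher under DMSO, and the treated groups of both lines overlapped, with means of 57.9 ± 2.73 and 56.6 ± 3.81 CPM (SD, n = 3). GBE1, the branching enzyme (chr3:81489699-81762161, minus strand), had 83.8, 90.2 and 84.7 CPM in PA-1 under DMSO and 138, 138 and 131 under BAY-850, a log2 fold change of 0.66 ± 0.0572. Its SK-OV-3 values were 109, 110 and 111 CPM under DMSO and 117, 121 and 92.9 under BAY-850. Here the treated libraries lay on both sides of the controls, replicate 3 below them, and the log2 fold change was 0.013 ± 0.08 with replicate 3 and 0.11 ± 0.0532 without it. The response was lower in SK-OV-3 than in PA-1 by 0.53 ± 0.108 for GYS1 and by 0.65 ± 0.11 for GBE1 on the log2 scale.

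The enzymes that feed glucose to the synthase differed from each other. UGP2, which makes UDP-glucose (chr2:63840940-63891562, plus strand), was not called in either line. It had 76.2, 81.8 and 83.7 CPM in PA-1 under DMSO and 77.4, 76.5 and 74 under BAY-850, and 96.2, 102 and 108 CPM in SK-OV-3 under DMSO and 94.2, 96.1 and 100 under BAY-850. The log2 fold changes were -0.083 ± 0.0595 and -0.063 ± 0.0631, and the groups overlapped in both lines. PGM1, which interconverts the glucose phosphates (chr1:63593276-63660245, plus strand), had 99.6, 97.7 and 108 CPM in PA-1 under DMSO and 117, 125 and 130 under BAY-850, a log2 fold change of 0.29 ± 0.0625. In SK-OV-3 it had 141, 146 and 131 CPM under DMSO and 159, 154 and 147 under BAY-850. These groups did not overlap either, but the log2 fold change of 0.15 ± 0.0573 was not called. PGM1 shares 197 bases of exon with ITGB3BP on the opposite strand. The libraries were made to keep strand, and the strand setting of the counting is not given in the sources used here. The split of reads between PGM1 and ITGB3BP is thus uncertain. HILPDA shares 186 and 175 bases of exon with other transcripts on its own strand. PNPLA2 shares 401 bases and PYGL 180 with transcripts on the opposite strand. None of these latter partners was among the symbols counted, and their part in the counts was not tested.

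The phosphorylases, which break glycogen down, had the smallest called responses in PA-1. PYGL (chr14:50857891-50944736, minus strand) had 105, 106 and 111 CPM in PA-1 under DMSO and 123, 121 and 125 under BAY-850, a log2 fold change of 0.20 ± 0.0548. In SK-OV-3 it had 101, 103 and 98.3 CPM under DMSO and 90.9, 96.7 and 86.1 under BAY-850, all 3 treated libraries below the controls, with a log2 fold change of -0.13 ± 0.0574 that was not called. PYGB (chr20:25248069-25298014, plus strand), the more abundant of the pair in each line, had 210, 209 and 209 CPM in PA-1 under DMSO and 248, 247 and 239 under BAY-850, a log2 fold change of 0.23 ± 0.0511. Its SK-OV-3 values were 312, 306 and 328 CPM under DMSO and 309, 291 and 266 under BAY-850, with overlapping groups and a log2 fold change of -0.12 ± 0.0553. Both phosphorylases thus had a positive estimate in PA-1 and a negative one in SK-OV-3, and their responses were lower in SK-OV-3 by 0.34 ± 0.0745 for PYGL and 0.35 ± 0.076 for PYGB on the log2 scale. The calls in PA-1 were close to the threshold. PYGL, PYGB and PGM1 were all lost, with 5 of the 10 genes still called, when DMSO replicate 1, DMSO replicate 2 or BAY-850 replicate 2 was left out, or when libraries were scaled by their totals only. PYGL lost its call in 11 of 17 alternatives, PYGB in 7 and PGM1 in 4, while the direction stayed the same in all of them.

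Counted together, 8 of the 10 genes were called higher and 0 lower in PA-1 (edgeR's quasi-likelihood test, adjusted p under 0.05), where 7.13% of the 15212 genes tested were called in either direction 4.65% higher and 2.48% lower. The median log2 fold change of the 10 was 0.42, beside -0.002 over all genes tested. In 8 of the 10 the libraries of the groups did not overlap, all of them higher, where 27.5% of all genes tested did not overlap, 14.1% higher and 13.3% lower. In SK-OV-3, 2 of the 10 were called, PLIN2 and GYS1, both higher, where 20.4% of 15348 genes were called, 10.8% higher and 9.56% lower. The median there was 0.14, beside -0.009 over all genes, and 3 genes were higher without overlap and 1 was lower, where 38.6% of all genes did not overlap, 18.1% higher and 20.5% lower. The response differed between the lines in 7 of the 10 genes, lower in SK-OV-3 in 6 and higher in 1, where 14.5% of 16830 genes were called for this difference, 6.7% higher and 7.77% lower in SK-OV-3. Nothing is read from these member counts against the background, since the genes were chosen with these responses known.

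**Figure D2:**
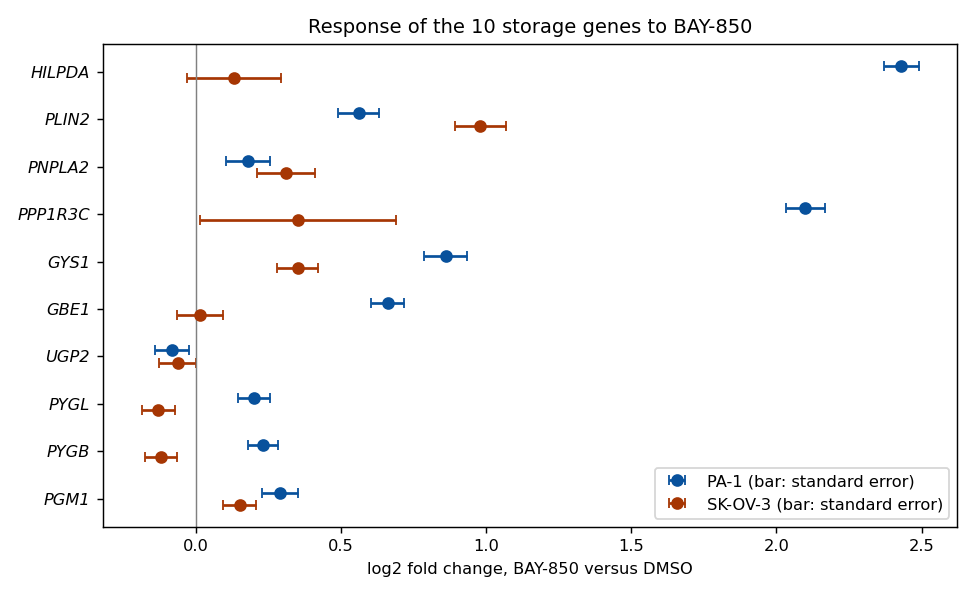
Log2 fold change of BAY-850 against DMSO (x axis) for each of the 10 storage genes (y axis) in PA-1 (blue) and SK-OV-3 (brown). Points are edgeR estimates and bars are standard errors (n = 3 libraries per group). HILPDA at 2.43 and PPP1R3C at 2.1 are far to the right in PA-1, PLIN2 is the gene whose SK-OV-3 response of 0.98 exceeds its PA-1 response of 0.56 by the test of the difference, and UGP2 lies just left of 0 in both lines.

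The lines differed under DMSO in most of these genes. HILPDA, PLIN2 and PPP1R3C were lower in SK-OV-3, and 5 of the other glycogen genes were higher. Between the DMSO groups 8 of the 10 were called, 5 higher and 3 lower in SK-OV-3, where 80.3% of 16070 genes were called, 40.1% higher and 40.2% lower, so a called difference is the common case between these lines. The libraries did not overlap in 9 of the 10, with 5 higher and 4 lower in SK-OV-3, and in 82.3% of all genes tested, with 41.1% higher and 41.2% lower. The DMSO libraries in this comparison are the same ones that serve as controls for the responses above. It is not known whether this comparison also led to the choice of the 10 genes, so its p-values are no independent evidence for them. PPP1R3C was 9.19-fold lower in SK-OV-3, with a log2 difference of -3.20 ± 0.217 (SE) and an adjusted p of 2.19e-08 by edgeR's quasi-likelihood test, the test used for each adjusted p here. HILPDA was 4.46-fold lower (log2 difference -2.16 ± 0.0988, adjusted p 4.58e-10) and PLIN2 2.57-fold lower (log2 difference -1.36 ± 0.0829, adjusted p 7.45e-09). In all 3 genes, which encode the phosphatase targeting subunit, the lipase inhibitor and the droplet coat, every SK-OV-3 library was below every PA-1 library.

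The 5 genes called higher in SK-OV-3 under DMSO differed by much less. The log2 difference was 0.58 for PYGB (adjusted p 2.27e-07), 0.49 for GYS1 (adjusted p 8.54e-05), 0.45 for PGM1 (adjusted p 1.89e-05), 0.35 for GBE1 (adjusted p 7.03e-05) and 0.34 for UGP2 (adjusted p 0.000292), with standard errors from 0.0502 to 0.0797. For PNPLA2 the groups overlapped (log2 difference 0.17 ± 0.0797, adjusted p 0.0709 by edgeR). PYGL was lower in all 3 SK-OV-3 libraries, by little (log2 difference -0.095 ± 0.0535, adjusted p 0.121 by edgeR). The lipase and the liver-type phosphorylase were thus the 2 genes not called between the lines.

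To compare the genes with each other, CPM was divided by the kilobases of merged exon in GENCODE. On this scale PYGB headed the 10 genes in PA-1 under DMSO at 46.9 ± 0.139 CPM per kilobase (SD, n = 3), followed by PGM1 at 24.1 and PYGL at 22.4. HILPDA at 17.3, PNPLA2 at 17.2 and GBE1 at 16.7 came next and overlapped in order, then UGP2 at 12.4, and PLIN2 at 8.71, PPP1R3C at 7.86 and GYS1 at 7.5 closed the order with overlapping neighbours. Under BAY-850 the order in PA-1 was different: HILPDA stood first at 93 ± 2.24 CPM per kilobase, above PYGB at 54.8, and PPP1R3C came next at 33.8, above PGM1 at 29.5. GBE1 at 26.3 and PYGL at 25.6 overlapped, PNPLA2 followed at 19.4, GYS1 at 13.6 and PLIN2 at 12.8 overlapped, and UGP2 was last at 11.7.

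In SK-OV-3 the order of the levels per kilobase changed less. Under DMSO it ran from PYGB at 70.5 and PGM1 at 33.1 through GBE1 at 21.3, PYGL at 21 and PNPLA2 at 19.3, whose neighbours overlapped, to UGP2 at 15.7 and GYS1 at 10.6. HILPDA at 3.88 and PLIN2 at 3.39 overlapped, and PPP1R3C was last at 0.858 ± 0.312 CPM per kilobase. Under BAY-850 the first places were again held by PYGB at 64.5 and PGM1 at 36.4, and PNPLA2 at 23.7, GBE1 at 21.3 and PYGL at 19 overlapped in order. UGP2 at 14.9, GYS1 at 13.3, PLIN2 at 6.65, HILPDA at 4.21 and PPP1R3C at 1.08 followed without overlap, with PLIN2 above HILPDA. Divided by the longest transcript instead of the merged exons, HILPDA still headed PA-1 under BAY-850, at 140 CPM per kilobase, and PYGB headed the other 3 groups. PPP1R3C then stood sixth in PA-1 under BAY-850, and PLIN2 stood above HILPDA in SK-OV-3 under DMSO as well, at 8.75 against 5.86. The last place in PA-1 changed too. Under BAY-850 it fell to GYS1 at 16.2, below UGP2 at 17.3 and PLIN2 at 33, and under DMSO to PPP1R3C at 7.86.

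**Figure D3:**
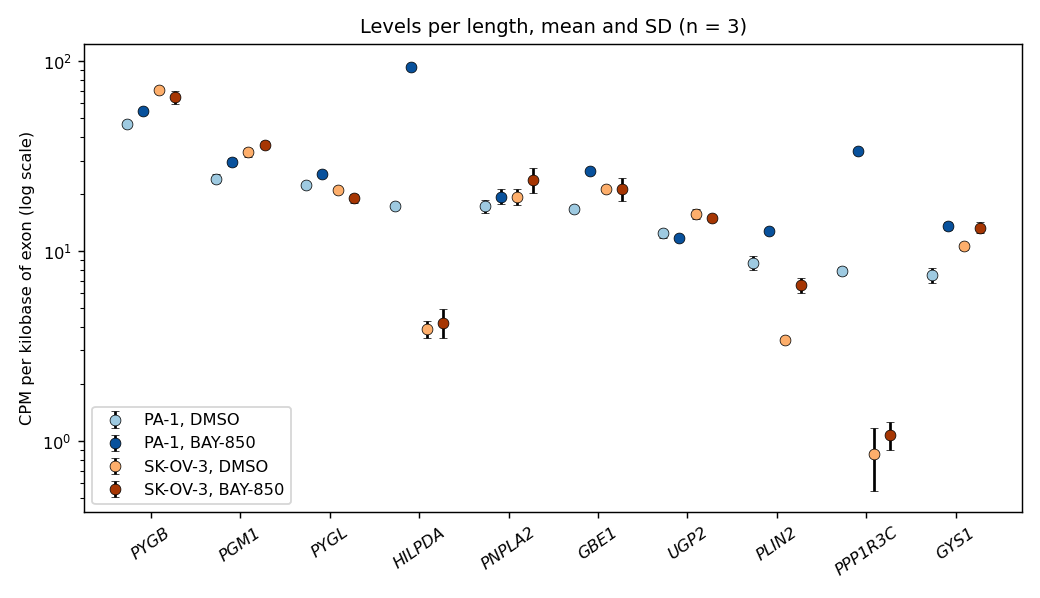
Level per length of the 10 storage genes (x axis, in the order of PA-1 under DMSO) as CPM per kilobase of exon on a log scale (y axis), by line and treatment. Points are means and bars are SDs (n = 3). HILPDA moves from 17.3 to 93 in PA-1 and stays near 4 in SK-OV-3, where PPP1R3C lies near 1, while PYGB stays between 46.9 and 70.5 in the 4 groups.

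Ratios within a library show how the members stood to one another, again per kilobase of exon and as a description. HILPDA to PNPLA2, inhibitor to lipase, was 1.01 ± 0.0435 in PA-1 under DMSO and 4.81 ± 0.387 under BAY-850 (SD, n = 3). In SK-OV-3 it was 0.201 ± 0.0133 under DMSO and 0.177 ± 0.00447 under BAY-850. The 2 lines thus differed under DMSO and stood further apart under BAY-850. GYS1 to the sum of PYGL and PYGB, synthase to phosphorylases, was 0.108 ± 0.00908 in PA-1 under DMSO and 0.17 ± 0.00657 under BAY-850. The same ratio in SK-OV-3 was 0.116 ± 0.00263 and 0.16 ± 0.00777, higher under BAY-850 in all 3 libraries of each line. PYGL to PYGB was 0.477 and 0.468 in PA-1 and 0.298 and 0.296 in SK-OV-3, with overlapping treatment groups, so the balance of the liver and brain types differed between the lines and little between treatments. PLIN2 to PLIN3, a droplet coat protein found in most cells, was 0.16 under DMSO and 0.241 under BAY-850 in PA-1, and 0.0649 and 0.12 in SK-OV-3. PLIN3 itself had means of 153 and 150 CPM in PA-1 and of 147 and 156 CPM in SK-OV-3. The size of a ratio between genes depends on the length used. In PA-1 under DMSO, PLIN2 and PLIN3 were at 8.71 and 54.2 CPM per kilobase by merged exon. By the longest transcript they were at 22.5 and 65.4. A gene's length is the same in every library, so the relative change in a ratio of 2 genes between groups does not depend on it.

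A list of 70 other genes of glycogen and droplet storage describes the rest of these pathways. It was set by their roles, but with earlier results of these data known. The p-values and shares given for the related genes are therefore no independent evidence. In PA-1 57 of them could be tested, and 4 were called, all higher. That is 7.02%, beside 7.13% of all genes, with a median log2 fold change of 0.04. STBD1, which binds glycogen and takes part in its lysosomal breakdown, was at 12.2, 11.3 and 11.7 CPM under DMSO and 16.3, 21.2 and 21.5 under BAY-850 (log2 fold change 0.74 ± 0.114, adjusted p 0.00121 by edgeR). PYGM, the muscle phosphorylase, had a log2 fold change of 0.53 ± 0.115 (adjusted p 0.0129). Its call was lost without DMSO replicate 2 (adjusted p 0.0716 by edgeR), without BAY-850 replicate 2 (0.0631) and in the fit of all 12 libraries (0.552). PGM2, a second phosphoglucomutase, had 0.40 ± 0.0728 (adjusted p 0.00472), and VLDLR, a receptor for triglyceride-rich lipoprotein, 0.39 ± 0.0705 (adjusted p 0.00434). By role, 2 of 9 genes of glycogen breakdown, 1 of 6 of glycogen synthesis and 1 of 11 of fatty acid uptake and activation were called. The lists of phosphatase targeting (6 tested), of droplet coat and assembly (6), of triglyceride and sterol ester synthesis (13) and of lipolysis (6) had no called gene in PA-1. PPP1R3B, another subunit that targets the phosphatase to glycogen, had 26.5, 26.7 and 27.1 CPM under DMSO and 28, 27.9 and 27.7 under BAY-850, with a log2 fold change of 0.06 ± 0.069 that was not called.

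In SK-OV-3 18 of the 56 related genes that could be tested were called, 13 higher and 5 lower, which is 32.1% beside 20.4% of all genes, with a median log2 fold change of 0.069. Without BAY-850 replicate 3 the calls were 22, 14 higher and 8 lower, and the share of all genes called in that fit is not given. G0S2, an inhibitor of PNPLA2 as HILPDA is, had 69.2, 61.3 and 58.2 CPM under DMSO and 201, 207 and 186 CPM under BAY-850, a log2 fold change of 1.67 ± 0.0708 (adjusted p 5.83e-08 by edgeR). In PA-1 it was at 1.97, 1.55 and 1.81 CPM under DMSO and 1.53, 1.40 and 2.18 under BAY-850. Of these genes for inhibitors of the same lipase, HILPDA was called in PA-1 and G0S2 in SK-OV-3. For G0S2 the SK-OV-3 response exceeded that in PA-1 by 1.71 ± 0.198 (adjusted p 4.07e-05 by edgeR), where HILPDA gave the difference of -2.32 above.

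Other called genes act on the droplet or its lipid. TMEM159 (also named LDAF1), an assembly factor of droplets, rose from a mean of 9.62 ± 0.789 to 17.1 ± 1.04 CPM in SK-OV-3 (SD, n = 3), with a log2 fold change of 0.84 ± 0.114 (adjusted p 0.00038 by edgeR). LPIN1, which makes diacylglycerol from phosphatidic acid, rose from 29 ± 3.71 to 41.4 ± 1.9 CPM (log2 fold change 0.53 ± 0.0972, adjusted p 0.00296). VLDLR rose here too, from 17.8 ± 0.67 to 25.5 ± 2.97 CPM (log2 fold change 0.52 ± 0.1, adjusted p 0.00371), and so did STBD1, from 8.67 ± 1.02 to 14.8 ± 1.7 CPM (log2 fold change 0.79 ± 0.141, adjusted p 0.00258). STBD1 and VLDLR were thus called higher in both lines, though VLDLR in PA-1 was not when libraries were scaled by their totals only (adjusted p 0.0594 by edgeR). Among the 5 genes that fell were SLC27A4, a fatty acid transporter, by 0.37 on the log2 scale, GPAM, the mitochondrial glycerol phosphate acyltransferase, by 0.35, FABP5, a fatty acid binding protein, by 0.31, and PHKB, a subunit of phosphorylase kinase, by 0.28, with adjusted p between 0.00362 and 0.0263 by edgeR. SLC27A4 kept its call in all 17 alternatives. The falls of GPAM, FABP5 and PHKB were less stable. Leaving out single libraries ended the call for GPAM and FABP5 in 4 cases each (adjusted p up to 0.139 and 0.0666 by edgeR) and for PHKB in 2 (up to 0.0777). By role, against 10.8% of all genes called higher and 9.56% lower in SK-OV-3, 3 of 6 genes of lipolysis and its control were called higher, and 4 of 10 genes of fatty acid uptake and activation were called higher and 2 lower. Triglyceride and sterol ester synthesis had 3 of 13 higher and 1 lower, and droplet coat and assembly 1 of 5 higher. On the glycogen side, breakdown had 1 of 9 higher and 2 lower, phosphatase targeting 1 of 7 higher, and synthesis 0 of 6 called.

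**Figure D4:**
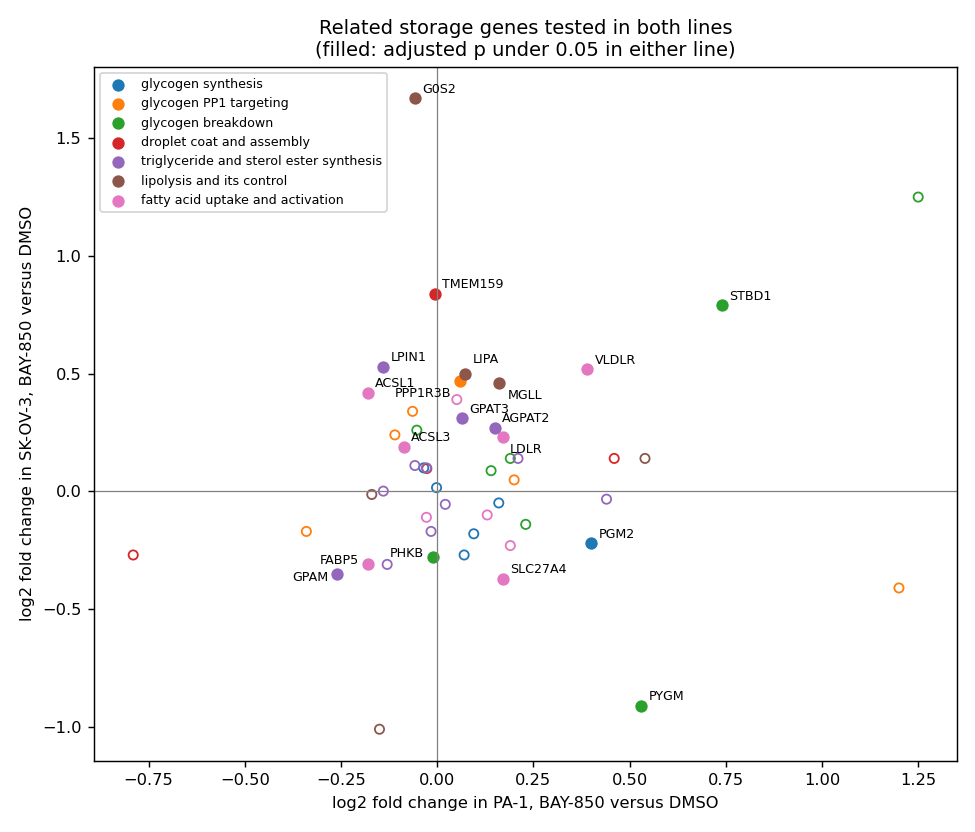
Log2 fold change of BAY-850 against DMSO in PA-1 (x axis) and SK-OV-3 (y axis) for 52 related storage genes tested in both lines, coloured by role. Filled points are the 19 genes with an adjusted p under 0.05 in at least 1 line. G0S2 at 1.67 and TMEM159 at 0.84 lie near 0 on the PA-1 axis, and STBD1 and VLDLR lie to the upper right.

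The test of the difference between the lines called 7 of the 60 related genes, or 11.7% beside 14.5% of all genes. Besides G0S2, 3 responded more in the positive direction in SK-OV-3. The difference was 0.84 ± 0.158 for TMEM159 (adjusted p 0.00242 by edgeR), 0.39 ± 0.0777 for PPP1R3B (adjusted p 0.0033) and 0.66 ± 0.179 for LPIN1 (adjusted p 0.0221). PPP1R3B was at 133, 140 and 149 CPM in SK-OV-3 under DMSO and 191, 187 and 199 CPM under BAY-850. It was the only called gene of the phosphatase targeting list in this line, and PPP1R3C stayed between 1.26 and 3.16 CPM. PPP1R3D, of the same list, was also higher without overlap but was not called. It had 6.01, 6.83 and 6.63 CPM under DMSO and 7.95, 8.05 and 8.34 under BAY-850. Among the 3 with a lower response in SK-OV-3 were PGM2 (difference -0.63 ± 0.107, adjusted p 0.00116) and SLC27A4 (difference -0.56 ± 0.102, adjusted p 0.00197). LPIN1 was named after its values were seen.

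Under DMSO 51 of the 60 related genes tested differed between the lines, 30 higher and 21 lower in SK-OV-3, which is 85% beside 80.3% of all genes. All 14 genes of triglyceride and sterol ester synthesis were called, 11 of them higher in SK-OV-3. AGPAT3, an acyltransferase of that route, was at 1.74 ± 0.142 CPM in PA-1 and 157 ± 2.88 CPM in SK-OV-3, and GPAT3, another, at 2.86 ± 1.11 and 89.9 ± 0.788 CPM (SD, n = 3). The lipase that completes triglyceride breakdown, MGLL, was at 0.988 ± 0.296 CPM in PA-1 and 284 ± 5.94 in SK-OV-3. Of the 7 genes of droplet coat and assembly, 4 were called lower in SK-OV-3 (PLIN4, PLIN5, BSCL2 and TMEM159) and 1 higher (PLIN1). PLIN5 had 196, 305 and 211 counts in PA-1 and 4, 1 and 9 in SK-OV-3. PLIN4 had 38, 67 and 85 counts in PA-1 and 4, 0 and 0 in SK-OV-3. The abundant coat gene PLIN3 was not called (log2 difference -0.055 ± 0.0539). Of the glycogen genes, GYG2, a glycogenin that primes the polymer, was 18.7-fold lower in SK-OV-3 (84.9 ± 2.64 against 4.55 ± 0.684 CPM), and PYGM was at 16.9 ± 2.69 CPM in PA-1 and 0.715 ± 0.483 in SK-OV-3. NHLRC1, a ubiquitin ligase that acts on glycogen-bound proteins, had 7, 10 and 0 counts in PA-1 and 215, 154 and 168 in SK-OV-3, and GPAT2 had 51, 43 and 28 counts in PA-1 and 7, 2 and 4 in SK-OV-3.

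Over the 12 libraries, the genes whose log2 CPM was most like that of HILPDA, among 14092 genes, were SLC2A1 (a glucose transporter, Pearson r 0.997), NPTX1 (r 0.99) and HK2 (a hexokinase, r 0.989). Their means in the order PA-1 DMSO, PA-1 BAY-850, SK-OV-3 DMSO and SK-OV-3 BAY-850 were 604, 1470, 325 and 336 CPM for SLC2A1 and 120, 351, 54.5 and 68.9 CPM for HK2. For PPP1R3C the most alike were DPYSL4 (r 0.994), PTPRS (r 0.987) and ZBTB25 (r 0.987). DPYSL4 had means of 28.5, 38.9, 17.4 and 18 CPM in the same order, a much narrower range than that of PPP1R3C. The 12 points share 2 lines, 2 treatments and their normalization, so these r values are a description of likeness.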

How the data were processed

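RNA from 12 libraries of PA-1 and SK-OV-3 was sequenced, with mRNA selection on oligo-dT beads and a strand-specific library in the sample descriptions, although the series text speaks of ribosomal RNA depletion. The authors deposited RSEM expected counts per gene symbol, with no scaling between libraries. The submitters' processing notes name RSEM 1.2.15, Bowtie2 2.1.0 and hg38, and the annotation and strand setting are not given in the sources used here. RSEM divides reads that fit several genes, and 8.94% to 12.4% of all of a library's values, zeros included, were not whole numbers.

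Expected counts were rounded to whole numbers. Each line was fitted alone with edgeR 4.0.16 under R 4.3.3 (TMM factors, edgeR's filter on low counts, quasi-likelihood test, Benjamini-Hochberg adjustment over all genes tested, threshold 0.05), as were the DMSO groups. The difference of the responses came from an interaction term over all 12 libraries. A standard error is the size of the log2 fold change over the square root of F. CPM levels use TMM factors over all 12 libraries, and likeness used log2 of CPM plus 0.5 in genes with a mean of at least 1 CPM. Lengths and positions come from GENCODE on GRCh38, and promoter stretches from RefSeq. Where a gene had several starts in the table, the one nearest to the GENCODE start was used. The fits were tested on simulated data.

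The 10 genes, the 70 related genes, the markers and the motifs were chosen with earlier results of these data known. All 10 were to be named, with up to 5 related genes per comparison and direction by size of change among those called without overlap, the 5 of smallest p for the difference between lines, and the 3 genes most like HILPDA and PPP1R3C. Other related genes were named after their values were seen. One related gene that was tested and counted is not reported here. No pair of replicates was one library counted again: their counts gave a chi-square of 5.05 to 72.7 for each degree of freedom. The sources call the replicates biological and say no more of the cultures. Libraries held 34544505 to 51840233 counts, and the spread between replicates exceeded counting error, with biological coefficients of variation of 0.0916 to 0.144 in the 4 fits. The alternatives were limma-voom (limma 3.58.1), DESeq2 1.42.0, other scalings and filters, a removed GC trend, a fit of all 12 libraries, a replicate block and leaving out each library.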

Additional observations from a re-analysis of the deposited data

Results flagged for a closer look

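In the genes below, the response to BAY-850 differed between PA-1 and SK-OV-3 by the interaction term of edgeR over all 12 libraries. The values are the log2 fold change in SK-OV-3 minus that in PA-1. Among the 10 storage genes, which were chosen with these responses known, HILPDA (-2.32), PPP1R3C (-1.75), GBE1 (-0.65), GYS1 (-0.53), PYGB (-0.35) and PYGL (-0.34) were lower in SK-OV-3, and PLIN2 (0.41) was higher. Of these 7 genes only PYGL and PYGB had estimates of opposite sign in the lines, and neither was called in SK-OV-3. Among the related genes G0S2 (1.71), TMEM159 (0.84), LPIN1 (0.66) and PPP1R3B (0.39) were higher in SK-OV-3, and PGM2 (-0.63) and SLC27A4 (-0.56) were lower.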

How the results depend on the processing

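Each response and line difference was recomputed under 11 settings and without each library in turn, as far as each applied. Over the 10 genes 659 of the recomputed differences kept their direction and side of the threshold, 25 lost their call, 14 gained one and 12 changed sign, and the related genes named kept 478, lost 15 and turned 0. In PA-1 the number of the 10 genes called was 8, 5 with scaling by library size only, and 5 to 8 without single libraries. The number of related genes called for the difference between lines was 7, 12 with DESeq2, and 7 to 11 without single libraries, 11 without PA-1 DMSO replicate 3. The share of all genes called under the other settings is not given. A general change in calls thus cannot be told apart from one in these genes. Pairing by replicate number was not seen. Deviations of same-numbered libraries correlated from -0.0812 to 0.0416, and those of differently numbered libraries from -0.177 to 0.136. With 3 libraries per group these values cannot exclude pairing. A replicate block called 7 of the 10 genes in PA-1, 3 in SK-OV-3 and 7 for the difference, and 4, 18 and 7 related genes. Sign changes were limited to values near 0. UGP2 in PA-1 went from -0.083 to 0.021 with the GC trend removed and 0.022 with the block added. GBE1 in SK-OV-3 went from 0.013 to -0.00066 with limma-voom and ranged from -0.049 to 0.11 without single libraries. The UGP2 difference between lines went from 0.0073 to -0.063 with the GC trend removed, with or without the block, ranged up to 0.058 without single libraries, and turned sign without PA-1 DMSO replicate 2 (-0.0038) or 3 (-0.015), PA-1 BAY-850 replicate 3 (-0.012), SK-OV-3 DMSO replicate 1 (-0.036) or BAY-850 replicate 3 (-0.019). Of the calls lost, 11 were of PYGL, 7 of PYGB and 4 of PGM1 in PA-1. PYGM lost its call in PA-1 in 3 alternatives (adjusted p up to 0.552, edgeR). The cause was not tested. PPP1R3C in SK-OV-3 had 50 to 170 counts per library. Its SD between libraries was 36.4% of the mean under DMSO and 16.8% under BAY-850.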
